A study of Mus musculus with 24 samples.

Results

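The levels of 10 regulators of mitochondrial biogenesis were compared in Lin-Sca-1+c-Kit+ (LSK) cells of mouse bone marrow, the fraction that contains hematopoietic stem cells and multipotent progenitors. The genes were taken by symbol: the PGC-1 coactivators Ppargc1a, Ppargc1b and Pprc1, the transcription factor Nrf1, the mitochondrial transcription factors Tfam, Tfb1m and Tfb2m, the mitochondrial RNA polymerase Polrmt, and the catalytic and accessory subunits of the mitochondrial DNA polymerase, Polg and Polg2. All 10 were among the 24091 genes of the count table, and all 10 were among the 13520 genes with enough counts to be tested. Bulk RNA-seq was performed on sorted LSKs from 24 mice on the B6 background, in 4 groups of 6, each with 3 females and 3 males. The WT group was miR-142+/+, and the miR-142 KO group was miR-142-/-. The CP CML group, a model of chronic phase (CP) chronic myeloid leukemia (CML), was miR-142+/+ BCR-ABL. The BC CML group, a model of blast crisis (BC), was miR-142-/- BCR-ABL. In both leukemic groups the fusion oncogene came from the SCLtTA/BCR-ABL transgenes, which express BCR-ABL under the SCL promoter once tetracycline is withdrawn, and LSKs were taken 2 weeks after that induction. The miR-142-/- mice lacked miR-142 in every cell, not in LSKs alone.

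Nearly all proteins of the mitochondrion are encoded in the nucleus, and the small mitochondrial genome needs nuclear-encoded factors for its own copying and transcription. PGC-1 coactivators have no DNA-binding domain; they are recruited to promoters by factors such as NRF1, the ETS factor GABPA and the estrogen-related receptor ESRRA, and so raise the transcription of mitochondrial genes. TFAM packages mitochondrial DNA and, with TFB2M and POLRMT, starts its transcription. TFB1M methylates the small mitochondrial ribosomal RNA, and the POLG and POLG2 complex copies the mitochondrial genome. Of 13 mitochondrially encoded genes looked for by symbol, 0 were in the count table, so transcripts of the mitochondrial genome itself could not be analysed.

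Libraries held 16267965 to 24687077 counts. Mir142 counts were 94 to 127 in WT and 68 to 153 in CP CML libraries, and 0 in all 12 libraries labelled miR-142-/-. The transcripts of the sorting markers Kit and Ly6a (Sca-1) were present in every group, with mean levels of 801 to 1109 and 41.7 to 110 CPM. CPM values here use TMM-scaled library sizes. Both also differed between groups. Ly6a was higher in BC CML than in CP CML (log2 fold change 1.09 ± 0.21 SE, adjusted p = 0.0003328) and in miR-142 KO than in WT (1.15 ± 0.21 SE, adjusted p = 0.000201, edgeR), or 1.21 ± 0.22 without miR-142 KO replicate 3 (adjusted p = 0.0001887). Kit was lower in BC CML vs CP CML (-0.46 ± 0.095 SE, adjusted p = 0.0005464) and higher in CP CML than in WT (0.24 ± 0.09 SE, adjusted p = 0.0379, edgeR). Of the other genes that divide the LSK gate, Flt3, Slamf1 and Cd34 were called in at least 1 group comparison and Cd48 in none. Flt3, the receptor of lymphoid-primed progenitors, was at 870 ± 122 CPM in WT, 695 ± 94.0 in CP CML, 370 ± 76.9 in miR-142 KO and 297 ± 66.1 in BC CML (SD, n = 6). Slamf1 (CD150), a marker of long-term stem cells, was at 8.18 ± 1.30, 4.52 ± 0.88, 6.01 ± 0.53 and 3.13 ± 0.66 CPM in the same order. Cd34 was at 1161 ± 62, 934 ± 20, 1141 ± 76 and 1007 ± 77 CPM in that order. Cd48 was at 141 ± 18, 154 ± 9.1, 168 ± 41 and 183 ± 11 CPM. The summed level of 5 mast cell and basophil transcripts had medians of 394, 1655, 1032 and 5308 CPM in that order, and that of 5 B cell and plasma cell transcripts medians of 383, 330, 32.9 and 35.2 CPM. Medians of the summed level ran over the groups from 12 to 92.3 CPM for 5 neutrophil transcripts, 146.5 to 312 for 5 of megakaryocytes and 67.9 to 115 for 5 of T or NK cells, each highest in miR-142 KO. They ran from 85.1 to 286 CPM for 5 monocyte or macrophage transcripts, lowest in WT, and from 3830 to 4269 for 8 proliferation transcripts. Within each group, 0 of these markers were at 0 in every library. The part of these shifts in the values below was not tested. In bulk libraries, fewer cells of a type and less RNA per cell cannot be told apart. The library of miR-142 KO replicate 3 stood apart from its group on the first principal component of all tested genes, at 0.10 against -0.10 to -0.04 in the other 5. It had the highest level of its group for 5 regulators and the lowest for 3. Counts of calls in miR-142 KO vs WT and BC CML vs miR-142 KO are therefore given with and without replicate 3. So are regulator values whose call changed. Other libraries of this group differed in other ways. Replicate 2 was highest for 3 regulators and lowest for 4. On the third component, replicates 1 and 2 were at 0.41 and 0.495 and the rest of the group at -0.24 to 0.18. Of the 16 genes of related lists named below as called in miR-142 KO vs WT and the 16 in BC CML vs miR-142 KO, all kept their call and sign without replicate 3, with log2 fold changes of 0.691 to 1.1 and 0.875 to 1.25 times those with it.

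The level per transcript length separated the regulators by far more than any group difference did. As CPM per kb, the mean over all 24 libraries was highest for Pprc1 at 22.5, Tfam at 21.4, Polg at 16.8 and Tfb1m at 13.7. Polrmt (9.64), Nrf1 (8.08) and Polg2 (7.03) were intermediate. Tfb2m (3.46) and Ppargc1b (2.96) were lower, and Ppargc1a, at 0.331, was the least abundant of the 10. Within the PGC-1 family, Pprc1 provided 84.3 to 89.9% of the summed per-length level in every library, Ppargc1b 9.24 to 14% and Ppargc1a 0.284 to 3.64%. The median ratio of Polg to Polg2 per kb was 2.41 and that of Tfb1m to Tfb2m was 3.87. These per-length values, their order and these ratios hold for the deposited gene lengths only. For Tfb1m (1.327 kb) and Polg (4.573 kb) those lengths are shorter than the joined exons of GENCODE M21, the annotation used below for shared bases. For Ppargc1a the highest group mean was 3.42 times the lowest. For the other 9 regulators that ratio was between 1.07 (Nrf1) and 1.51 (Ppargc1b).

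**Figure D1:**
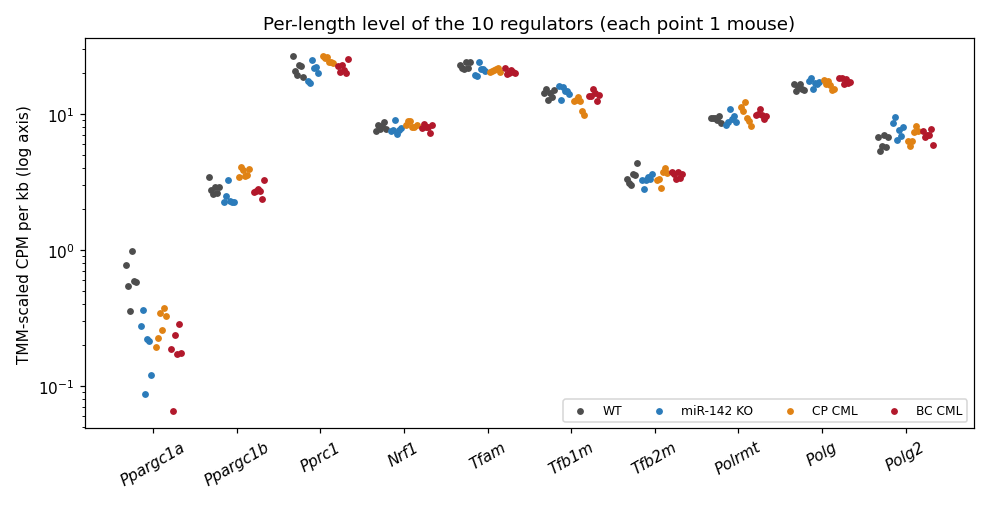
Per-length level (TMM-scaled CPM per kb of deposited gene length, log axis) of the 10 regulators, with 1 point per mouse and a colour per group. Pprc1 and Tfam had the highest means (22.5 and 21.4) and Ppargc1a the lowest (0.331), and Ppargc1a was the only regulator whose group means spread by more than 1.51 times.

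In the fit of all 24 libraries, 0 to 3 of the 10 regulators were called in each comparison, and these small counts moved with the settings. At an adjusted p below 0.05 (edgeR's quasi-likelihood test, Benjamini-Hochberg adjustment over 13520 genes), 2 of 10 were called in miR-142 KO vs WT, 1 higher and 1 lower, against 36.3% of all genes (19.9% higher, 16.4% lower). In BC CML vs CP CML, 2 of 10 were called, 1 in each direction, against 38% (20.4% higher, 17.6% lower). In CP CML vs WT, 3 of 10 were called, 1 higher and 2 lower, against 45.4% (22.5% higher, 22.9% lower). In BC CML vs miR-142 KO, 0 of 10 were called, with 0 at an unadjusted p below 0.05 and 0 by DESeq2, against 39.6% (20.3% higher, 19.3% lower). In this fit the shares of 20, 20, 30 and 0% were below those of all genes, and this order did not hold in every other fit. With miR-142 KO replicate 3 left out, 5 of 10 were called in miR-142 KO vs WT (Ppargc1b, Tfam and Polg in addition), against 33.4% of all genes, and 1 of 10, Ppargc1b, in BC CML vs miR-142 KO, against 47.5%. Upper quartile scaling also gave 4 of 10 in miR-142 KO vs WT, against 37.2%. In CP CML vs WT, 5 of 10 were called by DESeq2 (47% of all genes), with only the 12 libraries compared (46.2%) and without CP CML replicate 6 (45.1%). For these 5 counts of 4 or 5 regulators the share was above that of all genes. In CP CML vs WT, 4 of 10 were called with RLE scaling, upper quartile scaling, a filter of 1 CPM in 6 libraries and without WT replicate 1. There the share of 40% stayed below that of all genes (45.5, 46.9, 47.2 and 40.7%). The median absolute log2 fold change of the 10 in the 24-library fit was 0.10 in miR-142 KO vs WT, 0.09 in BC CML vs CP CML, 0.14 in CP CML vs WT and 0.11 in BC CML vs miR-142 KO, beside 0.18, 0.19, 0.22 and 0.20 over all genes. The comparisons share groups, so these are not independent counts. In all, 4 regulators were called at least once (Ppargc1a, Ppargc1b, Tfb1m and Polg2), and Pprc1, Nrf1, Tfam, Tfb2m, Polrmt and Polg were called in no group comparison of the 24-library fit. Of these 6, only Tfb2m was called in none of the other fits either.

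**Figure D2:**
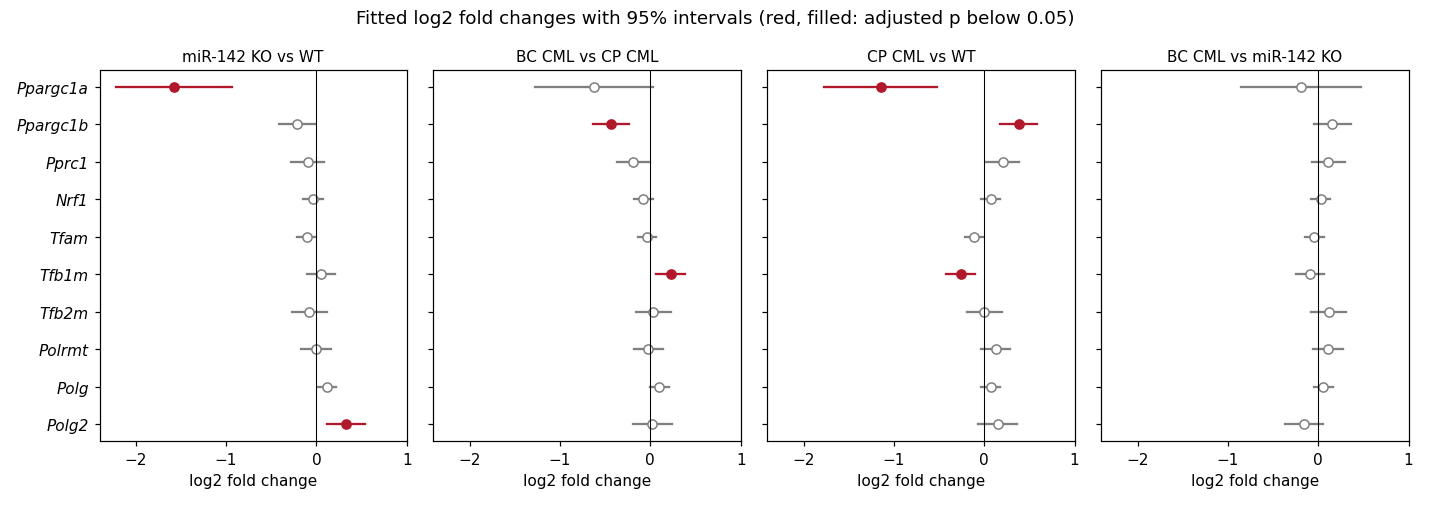
Fitted log2 fold changes (points) with 95% intervals (lines) for each regulator in the 4 group comparisons; red filled points have an adjusted p below 0.05. Intervals of Ppargc1a are the widest and reach furthest to the left in miR-142 KO vs WT (-2.22 to -0.94) and CP CML vs WT (-1.78 to -0.52), and no point is red in BC CML vs miR-142 KO.

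Ppargc1a encodes PGC-1α, the coactivator known for inducing mitochondrial genes in brown fat, muscle and liver. The gene lies on the minus strand of chromosome 5 at positions 51454249 to 51567725 (mm10, as given in the deposited count table, like the positions of the other genes). Its level was highest in WT LSKs, where it ran from 2.33 to 6.46 CPM with a median of 3.87 (57 to 150 counts per library). It ran from 1.27 to 2.45 CPM in CP CML (median 1.93), from 0.575 to 2.39 in miR-142 KO (median 1.42) and from 0.432 to 1.87 in BC CML (median 1.19). The lowest WT library, replicate 3, lay just below the highest miR-142 KO and CP CML libraries, and the other 5 WT libraries were above every library of the other 3 groups. In miR-142 KO vs WT, Ppargc1a was 2.99-fold lower (log2 fold change -1.58 ± 0.31 SE, adjusted p = 0.0003325, edgeR). In CP CML vs WT it was 2.21-fold lower (-1.15 ± 0.30 SE, adjusted p = 0.003894, edgeR). Between BC CML and CP CML the log2 difference was -0.62, with a 95% interval of -1.28 to 0.03 (adjusted p = 0.1259, edgeR). Between BC CML and miR-142 KO it was -0.19, with an interval of -0.86 to 0.47. Counts of 10 to 56 per library in the 3 groups other than WT leave these intervals wide. The miR-142 effect in BCR-ABL mice less that in mice without BCR-ABL was 0.96 ± 0.44 on the log2 scale (SE, unadjusted p = 0.04099, adjusted p = 0.2324, edgeR), so the effects were not shown to differ. Without miR-142 KO replicate 3, the change from WT was -1.41 (adjusted p = 0.0008332, edgeR), the difference from BC CML -0.36 (adjusted p = 0.3512) and the difference between the effects 0.77 (adjusted p = 0.3022). The stem cell marker Slamf1, the lymphoid-primed marker Flt3 and the summed level of 4 erythroid transcripts were also highest in WT and lowest in BC CML. By mean level, Cd34 was highest in WT but lowest in CP CML, and Cd48 was lowest in WT and highest in BC CML. The erythroid sum had medians of 11.2 CPM in WT, 3.26 in CP CML, 6.92 in miR-142 KO and 2.02 in BC CML. Flt3 had the same group order as Ppargc1a, with CP CML above miR-142 KO. Slamf1 and the erythroid sum were instead higher in miR-142 KO than in CP CML. The part of these markers in the Ppargc1a values was not tested.

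Ppargc1a was also the regulator with matches to the miR-142 seed. The mature miR-142 sequences from RefSeq (GRCm38.p6, chromosome 11, plus strand) are shown because their loss defines the KO and BC CML groups, with the seed, bases 2 to 8, in capitals.
mmu-miR-142a-3p: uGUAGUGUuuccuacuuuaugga
mmu-miR-142a-5p: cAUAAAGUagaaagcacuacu
The longest annotated 3′ UTR of each gene was searched on the transcript strand for the reverse complement of each seed, ACACTAC for the 3p arm and ACTTTAT for the 5p arm. The 3p match was found in 1 of 10 regulators and in 6.97% of 12618 tested genes with an annotated 3′ UTR. The 5p match was found in 0 of 10 and in 15.9%. The searched 3′ UTRs of the regulators ran from 53 bases (Polg2) to 3930 (Ppargc1a), and a short one has little room for a match. Those of Polg (3730) and Tfam (3095) held no match. The Ppargc1a 3′ UTR, 3930 bases long, held 2 matches, beginning at its bases 695 and 2957, and each is shown with its flanks and with the match in capitals.
Ppargc1a match at base 695: caatcccgaagACACTACaggttccatag
Ppargc1a match at base 2957: atcaaaagacaACACTACagatttcatgt
A match is a description of the sequence and not a measured binding site. Whether miR-142 acts on the Ppargc1a transcript was not tested. Its log2 fold change for miR-142 KO vs WT, -1.58, cannot decide this, because Flt3 and Slamf1 also differed between these bulk libraries.

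Ppargc1b encodes PGC-1β, the coactivator closest to PGC-1α. Its level was highest in CP CML, from 12.9 to 15.2 CPM with a median of 13.8. It ran from 9.62 to 12.8 CPM in WT (median 10.6), from 8.40 to 12.3 in miR-142 KO (median 8.50) and from 8.81 to 12.1 in BC CML (median 10.1). All 6 CP CML libraries were above every library of the other groups, although the lowest of them was at 12.86 CPM and the highest WT library at 12.80. In BC CML vs CP CML, Ppargc1b was 1.35-fold lower (-0.44 ± 0.10 SE, adjusted p = 0.001109, edgeR). This was 1 of 10 regulators whose BC CML and CP CML libraries did not overlap, and 20.7% of all genes did not overlap in this comparison. Ppargc1b was 1.3-fold higher in CP CML than in WT (0.38 ± 0.10 SE, adjusted p = 0.003047, edgeR), again the only regulator of 10 without overlap, against 21.8% of all genes. No regulator was without overlap in miR-142 KO vs WT or BC CML vs miR-142 KO, where 14.5% and 10.6% of all genes were. Both Ppargc1b calls were also made in each of the 20 other fits, which changed a processing choice or left out a mouse, with log2 fold changes of -0.51 to -0.41 and 0.34 to 0.44.

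In mice without BCR-ABL, the Ppargc1b comparison turned on 1 library. Of the miR-142 KO libraries, 5 lay between 8.40 and 9.24 CPM, below all 6 WT libraries, and replicate 3 was at 12.3. With all libraries the log2 difference was -0.21 ± 0.10 (SE, adjusted p = 0.09105, edgeR). Without replicate 3 it was -0.30 (adjusted p = 0.007681, edgeR), and with upper quartile scaling -0.27 (adjusted p = 0.03012). Leaving it out moved BC CML vs miR-142 KO from 0.155 (adjusted p = 0.2151) to 0.24 (adjusted p = 0.02212, edgeR). The miR-142 effects with and without BCR-ABL were not shown to differ with all libraries or without that one (difference of -0.22, or -0.15 without it).

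Pprc1 encodes PRC, the third and most abundant family member in these cells, and lies on chromosome 19 at positions 46056539 to 46072909, plus strand. Its levels overlapped between all 4 groups, at 121 to 174 CPM in WT, 155 to 175 in CP CML, 109 to 161 in miR-142 KO and 131 to 165 in BC CML. With all libraries Pprc1 was not called in any comparison. The difference between BC CML and CP CML was -0.19 (95% interval -0.37 to -0.01, adjusted p = 0.09397, edgeR) and that between CP CML and WT was 0.20 (0.02 to 0.39, adjusted p = 0.06238). The first was called in 3 of the 20 other fits, with the 12 libraries alone (-0.205, adjusted p = 0.0122), upper quartile scaling (-0.235, adjusted p = 0.0377) and without BC CML replicate 6 (-0.25, adjusted p = 0.03547, edgeR), and the second in 5 of 20 (lowest adjusted p = 0.01445, without WT replicate 1). These signs were those of Ppargc1b. Across the 24 libraries, the log2 levels of Pprc1 and Ppargc1b had a Pearson r of 0.76, and their deviations from group means an r of 0.60. The points share libraries and scaling, and the correlation is a description.

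**Figure D3:**
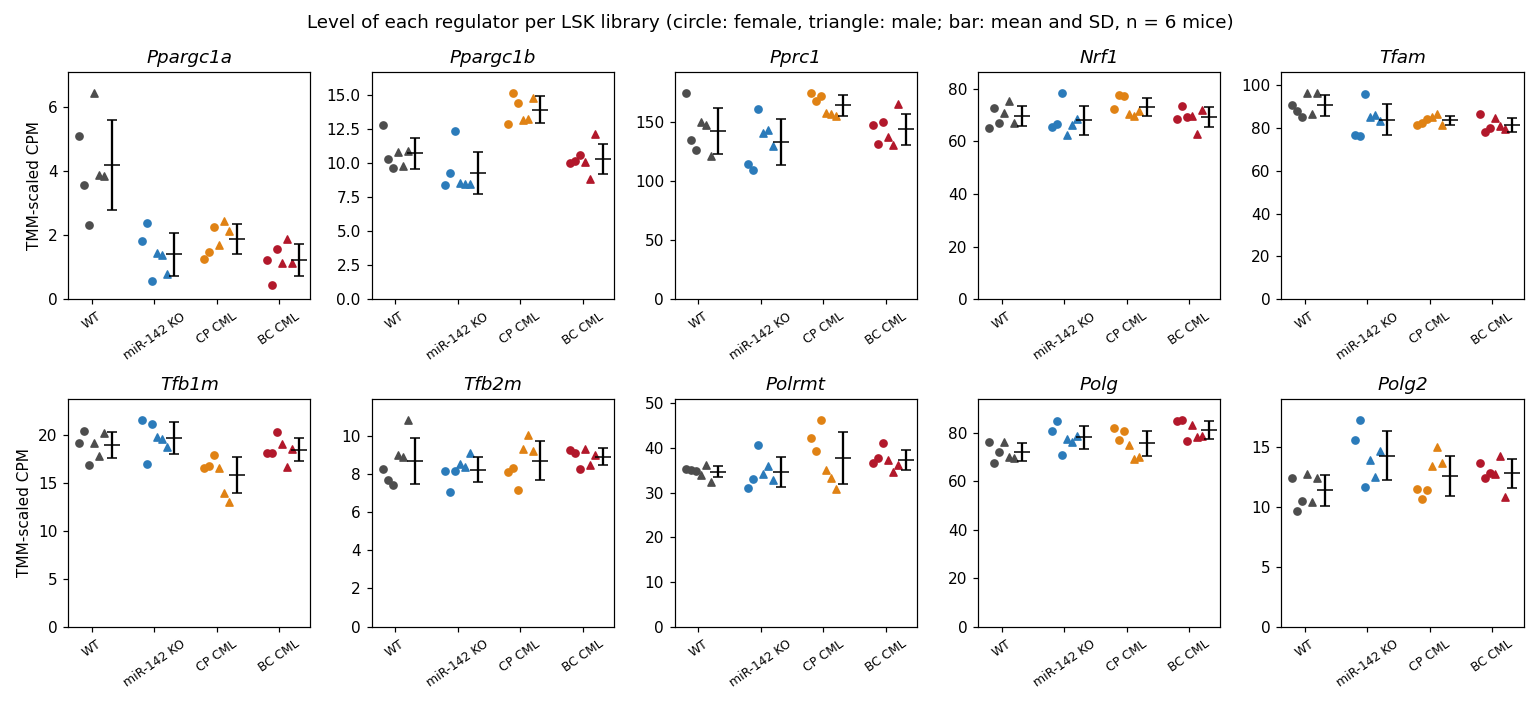
TMM-scaled CPM of each regulator in each library, by group, on linear axes from 0; circles are females, triangles males, and the bar beside each group is the mean with its SD (n = 6). Ppargc1a is highest in WT, Ppargc1b highest in CP CML, and a single miR-142 KO library (replicate 3) lies at 12.3 CPM for Ppargc1b.

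Tfb1m, the ribosomal RNA methyltransferase, lies on chromosome 17 at positions 3519256 to 3557713 on the minus strand. Its level was lowest in CP CML, at 13.01 to 17.9 CPM with a median of 16.6. It was 16.9 to 20.4 CPM in WT (median 19.1), 17.0 to 21.6 in miR-142 KO (median 19.7) and 16.6 to 20.3 in BC CML (median 18.3). The CP CML libraries overlapped each of the other groups at their upper end. Tfb1m was 1.2-fold lower in CP CML than in WT (-0.26 ± 0.08 SE, adjusted p = 0.008162, edgeR), a call made in each of the 20 other fits. It was 1.17-fold higher in BC CML than in CP CML (0.23 ± 0.08 SE, adjusted p = 0.02423, edgeR). This second call depended on single mice, since it was lost without CP CML replicate 5 (0.175, adjusted p = 0.09313) or 6 (0.16, adjusted p = 0.1033), and without BC CML replicate 3 (0.175, adjusted p = 0.08296), 4 (0.20, adjusted p = 0.06494) or 6 (0.21, adjusted p = 0.05418). It was also lost with upper quartile scaling (adjusted p = 0.06919) and with the 12 libraries of these 2 groups alone (adjusted p = 0.05261, edgeR). The opposite-strand gene Tiam2 shares 142 exonic bases with Tfb1m, 3.93% of the Tfb1m exons. Tiam2 was higher in CP CML than in WT (0.87 ± 0.14 SE, adjusted p = 4.791e-05) and lower in BC CML vs CP CML (-1.19 ± 0.14 SE, adjusted p = 9.405e-07, edgeR), the reverse of Tfb1m. Whether counting used strand is not given in the sources used here, so reads of the shared bases cannot be told apart.

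Tfb2m, the factor that opens mitochondrial promoters (chromosome 1, positions 179528056 to 179546267, minus strand), was called in no comparison. It ran from 7.45 to 10.9 CPM in WT, 7.159 to 10.05 in CP CML, 7.07 to 9.10 in miR-142 KO and 8.27 to 9.34 in BC CML, with overlap throughout. Tfam, the mitochondrial DNA packaging protein (chromosome 10, 71225477 to 71238273, minus strand), had group medians of 89.2 CPM in WT, 83.3 in CP CML, 84.1 in miR-142 KO and 80.2 in BC CML. Its log2 differences from WT were -0.11 in miR-142 KO (95% interval -0.21 to -0.01, adjusted p = 0.08155) and -0.12 in CP CML (-0.22 to -0.015, adjusted p = 0.05513, edgeR), and neither was called. Without miR-142 KO replicate 3, whose Tfam level of 95.7 CPM was the highest of its group, the first became -0.14 and was called (adjusted p = 0.01499, edgeR). Upper quartile scaling called both (adjusted p = 0.009079 and 0.008949, edgeR). The second was called in 4 of the 20 other fits, among them DESeq2 (adjusted p = 0.04179). The Tfam difference between BC CML and CP CML was -0.04 (95% interval -0.14 to 0.07).

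Polrmt, the RNA polymerase of the mitochondrion (chromosome 10, 79736125 to 79746581, minus strand), was at 32.5 to 36.1 CPM in WT, 30.8 to 46.3 in CP CML, 30.9 to 40.6 in miR-142 KO and 34.6 to 41.1 in BC CML. Nrf1, the nuclear transcription factor (chromosome 6, 30047988 to 30153458, plus strand), kept the narrowest group means of the 10, with medians of 68.8 CPM in WT, 71.8 in CP CML, 66.4 in miR-142 KO and 69.5 in BC CML. Neither gene was called in any group comparison of the 24-library fit. Upper quartile scaling called Nrf1 lower in BC CML vs CP CML (-0.12, adjusted p = 0.04307), where it made 3 of 10 regulators called against 37.7% of all genes. Polrmt was called higher in CP CML vs WT without CP CML replicate 6 (0.19, adjusted p = 0.04182, edgeR). Over the 6 regulators called in none with all libraries (these with Pprc1, Tfam, Tfb2m and Polg), the 95% intervals of all 4 comparisons lay between -0.37 and 0.39 on the log2 scale. Without Pprc1 they lay between -0.27 and 0.31. These intervals are not adjusted over genes, and those of Pprc1, Tfam and Polg given with their values include some that exclude 0.

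The catalytic and accessory subunits of the mitochondrial DNA polymerase had their lowest medians in WT. Polg (chromosome 7, 79449383 to 79466273, minus strand) ran from 67.6 to 76.3 CPM in WT (median 71.1), 69.1 to 81.7 in CP CML (median 76.0), 70.7 to 84.7 in miR-142 KO (median 77.9) and 76.5 to 85.3 in BC CML (median 80.8). With all libraries it was called in no comparison, and its log2 difference in miR-142 KO vs WT was 0.12 ± 0.05 (SE, 95% interval 0.01 to 0.22, adjusted p = 0.07033, edgeR). It was called there without miR-142 KO replicate 3 (0.15, adjusted p = 0.01603) and without WT replicate 4 (0.14, adjusted p = 0.04537, edgeR), a fit with 3 of 10 regulators called against 31.2% of all genes. Polg2 (chromosome 11, 106768204 to 106779537, minus strand) ran from 9.67 to 12.8 CPM in WT (median 11.4), 10.6 to 15.0 in CP CML (median 12.4), 11.6 to 17.2 in miR-142 KO (median 14.3) and 10.8 to 14.2 in BC CML (median 12.8). The miR-142 KO libraries overlapped WT in their lower part. Polg2 was 1.26-fold higher in miR-142 KO than in WT (0.33 ± 0.10 SE, adjusted p = 0.01547, edgeR), and each of the 20 other fits made the call (0.39 without replicate 3, adjusted p = 0.004992). Between BC CML and CP CML the Polg2 difference was 0.02 (95% interval -0.19 to 0.24). The miR-142 effect on Polg2 with BCR-ABL less that without it was -0.31 ± 0.15 (SE, unadjusted p = 0.0465, adjusted p = 0.2487, edgeR), or -0.385 without replicate 3 (adjusted p = 0.1138), so the effects were not shown to differ. Polg2 shares 132 exonic bases, 3.03% of its exons, with the opposite-strand gene Milr1, a receptor of mast cells. Milr1 was higher in miR-142 KO than in WT (0.47 ± 0.10 SE, adjusted p = 0.000978, edgeR), or 0.40 without replicate 3 (adjusted p = 0.002664). It was also higher in CP CML than in WT (0.83 ± 0.10 SE, adjusted p = 2.216e-06) and in BC CML than in miR-142 KO (0.58 ± 0.10 SE, adjusted p = 0.0001821, edgeR). Polg2 was not called in those comparisons (0.15 and -0.16). Between BC CML and CP CML, Milr1 was not called (0.23, adjusted p = 0.08343, edgeR). The part of shared reads in the Polg2 value was not tested. Polg shares 8.57% of its exonic bases with Fanci and Pprc1 2.82% with Ldb1, both on the opposite strand. Fanci was lower in CP CML than in WT (-0.20 ± 0.07 SE, adjusted p = 0.02186) and in BC CML than in miR-142 KO (-0.33 ± 0.07 SE, adjusted p = 0.0009318, edgeR), and was not called in the other 2 comparisons. Ldb1 was lower in miR-142 KO vs WT, CP CML vs WT and BC CML vs CP CML, with log2 differences of -0.30 ± 0.06, -0.23 ± 0.06 and -0.175 ± 0.06 (SE, adjusted p = 0.0003318, 0.002917 and 0.02004, edgeR), and was not called in BC CML vs miR-142 KO.

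The miR-142 effects in the presence and absence of BCR-ABL were compared in the same fit. No regulator passed (0 of 10, with 2 at an unadjusted p below 0.05, Ppargc1a and Polg2), and 3.99% of all genes did, 1.91% with a higher and 2.08% with a lower effect in BCR-ABL mice. DESeq2 also called 0 of 10. Without miR-142 KO replicate 3, 0 of 10 passed, against 5.64% of all genes.

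Sex was balanced in every group. Over the 4 groups, 0 of 10 regulators differed between males and females at an adjusted p below 0.05 (edgeR), against 0.651% of all genes, and DESeq2 also called 0. Without miR-142 KO replicate 3, 0 of 10 were called, against 1.02% of all genes. At an unadjusted p below 0.05 there were 2 with all libraries. Tfb2m was 0.18 ± 0.06 higher in males (SE, adjusted p = 0.117, edgeR), and the male minus female difference of Polrmt was -0.13 ± 0.05 (SE, adjusted p = 0.1972, edgeR). All 3 males were above all 3 females for Tfb2m in WT, miR-142 KO and CP CML, and the sexes overlapped in BC CML. Chosen after the values were seen, the CP CML group stood out in another way. In it, 7 of 10 regulators had no overlap between the sexes, against 22.8% of all genes. Pprc1, Nrf1, Tfb1m, Polrmt and Polg were higher in the 3 females, and Tfb2m and Polg2 in the 3 males. Polrmt, for example, was at 39.3 to 46.3 CPM in CP CML females and 30.8 to 35 in males, and Polg2 at 10.6 to 11.5 in females and 13.3 to 15.0 in males. For Tfb1m the lowest female was at 16.55 CPM and the highest male at 16.54. The sexes were apart for 1 of 10 regulators in WT (8.93% of all genes), 1 of 10 in miR-142 KO (17.4%) and 0 of 10 in BC CML (5.33%). The CP CML females were also at 0.05 to 0.10 on the first principal component of all genes and the males at -0.03 to 0.04. No sex difference was tested within a group of 3 against 3, and differences between groups in the sex effect were not tested.

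The promoter windows were examined for short motifs of factors that PGC-1 coactivators or mitochondrial genes are known to use. RefSeq windows (GRCm38.p6, 250 bases before to 50 after the start) of 9 of 10 regulators, 10 windows in all, were searched on both strands. They were set beside 13288 windows of 10447 tested genes. No window of Ppargc1b was searched. The NRF1 core GCGCATGC was found in Tfb2m and Polrmt and in 5.03% of all windows. The ETS motif CCGGAAG, the site of GABPA, was found in Tfam, Polrmt, Polg and Polg2 and in 16.7%. The CRE core TGACGT was found in Ppargc1a (11.1%), the YY1 motif ATGGCGG in Nrf1 (7.61%) and the E-box CACGTG in none of the 9 (9.72%). No matches within a window overlapped. Windows are printed for Ppargc1a, Tfb1m and Polg2, which changed in a comparison, and for Polrmt, which holds both the NRF1 and the ETS motif and was not called with all libraries, each 5′ to 3′ on the gene's strand with matches in capitals (on either strand). Ppargc1a is chr5:51567676-51567975, Tfb1m chr17:3557706-3558005, Polg2 chr11:106779488-106779787 and Polrmt chr10:79746532-79746831, all on the minus strand.
Ppargc1a: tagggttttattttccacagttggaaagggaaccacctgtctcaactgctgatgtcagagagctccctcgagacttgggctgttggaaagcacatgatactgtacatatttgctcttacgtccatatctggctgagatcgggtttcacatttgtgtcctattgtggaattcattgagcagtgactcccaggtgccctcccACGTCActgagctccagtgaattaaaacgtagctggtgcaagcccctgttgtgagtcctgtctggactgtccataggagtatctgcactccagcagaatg
Tfb1m: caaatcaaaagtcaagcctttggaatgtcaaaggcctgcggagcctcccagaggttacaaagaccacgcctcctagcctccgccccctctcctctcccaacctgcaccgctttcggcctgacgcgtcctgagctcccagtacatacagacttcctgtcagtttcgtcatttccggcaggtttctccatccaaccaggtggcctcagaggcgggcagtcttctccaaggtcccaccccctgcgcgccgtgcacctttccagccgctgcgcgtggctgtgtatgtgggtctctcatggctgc
Polg2: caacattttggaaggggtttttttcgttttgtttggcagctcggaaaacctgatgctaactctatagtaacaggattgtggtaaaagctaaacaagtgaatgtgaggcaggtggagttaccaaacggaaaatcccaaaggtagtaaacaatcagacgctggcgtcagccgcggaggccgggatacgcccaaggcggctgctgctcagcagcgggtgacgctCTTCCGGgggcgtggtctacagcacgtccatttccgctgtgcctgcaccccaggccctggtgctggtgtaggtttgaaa
Polrmt: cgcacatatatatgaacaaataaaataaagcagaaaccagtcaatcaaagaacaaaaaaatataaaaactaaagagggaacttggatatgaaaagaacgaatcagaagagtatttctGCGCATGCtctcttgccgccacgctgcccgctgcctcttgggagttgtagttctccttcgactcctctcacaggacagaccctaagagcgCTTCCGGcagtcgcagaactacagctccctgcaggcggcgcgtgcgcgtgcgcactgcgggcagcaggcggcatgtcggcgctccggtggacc
In these windows the Ppargc1a CRE match began at position -50 from the start, the Polg2 ETS match at -29, and the Polrmt NRF1 and ETS matches at -133 and -43. The ETS matches of Tfam and Polg began at -47 and -38, so all 4 lay within 47 bases before the start. Tfb1m held no match to these letters. Of the 4 regulators with the ETS motif, Polg2 was called once and Tfam, Polrmt and Polg in no comparison of the 24-library fit.

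Partners and upstream regulators of the PGC-1 family were called at shares near those of all genes with all libraries. Of 27 tested, 11 were called in miR-142 KO vs WT (5 higher, 6 lower), 10 in BC CML vs CP CML (3 higher, 7 lower), 12 in CP CML vs WT (7 higher, 5 lower) and 9 in BC CML vs miR-142 KO (4 higher, 5 lower). The shares were 40.7, 37, 44.4 and 33.3%, against 36.3, 38, 45.4 and 39.6% of all genes. Without miR-142 KO replicate 3, 10 were called in miR-142 KO vs WT (5 higher, 5 lower) and 10 in BC CML vs miR-142 KO (4 higher, 6 lower), 37% in each against 33.4 and 47.5% of all genes in those fits. Esrra, the estrogen-related receptor through which PGC-1 proteins act on oxidative genes, was called higher in all 4 comparisons. Its mean level was 19.7 ± 0.5 CPM in WT, 26.6 ± 1.3 in CP CML, 28.1 ± 1.1 in miR-142 KO and 32.4 ± 0.9 in BC CML (SD, n = 6). The change was 0.51 ± 0.04 in miR-142 KO vs WT (adjusted p = 3.189e-09) and 0.29 ± 0.04 in BC CML vs CP CML (SE, adjusted p = 1.276e-05, edgeR). The effect of miR-142 loss on Esrra was smaller in BCR-ABL mice, with a difference of -0.23 ± 0.06 (SE, adjusted p = 0.03117, edgeR), or -0.25 without miR-142 KO replicate 3 (adjusted p = 0.01834). Gabpb1, the partner subunit of the ETS factor GABPA, fell in all 4 comparisons, from 154 ± 11.2 CPM in WT to 132 ± 13.5 in CP CML, 123 ± 5.97 in miR-142 KO and 102 ± 5.26 in BC CML (SD, n = 6). Nrip1, a corepressor that opposes PGC-1 coactivators, was lower in BC CML both vs CP CML (-0.50 ± 0.08 SE, adjusted p = 5.242e-05) and vs miR-142 KO (-0.44 ± 0.08 SE, adjusted p = 0.0003153, edgeR). Stk11 (LKB1), the kinase upstream of AMPK, was higher in BC CML than in CP CML (0.27 ± 0.05 SE, adjusted p = 7.668e-05, edgeR). Among genes of AMPK subunits, Prkag2 was lower in miR-142 KO vs WT (-0.56 ± 0.09 SE, adjusted p = 3.589e-05), Prkaa2 was lower in CP CML than in WT (-1.28 ± 0.34 SE, adjusted p = 0.004077) and Prkab2 was lower in BC CML than in miR-142 KO (-0.53 ± 0.12 SE, adjusted p = 0.002031), while Prkag1 was higher in CP CML than in WT (0.17 ± 0.05 SE, adjusted p = 0.007178, edgeR). The CREB coactivator Crtc2 was lower in miR-142 KO vs WT (-0.27 ± 0.05 SE, adjusted p = 0.0004243, edgeR).

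Genes that maintain or transcribe mitochondrial DNA beside the core regulators were called in both directions. Of 26 tested, 9 were called in miR-142 KO vs WT (5 higher, 4 lower), 4 in BC CML vs CP CML (2 higher, 2 lower), 15 in CP CML vs WT (9 higher, 6 lower) and 8 in BC CML vs miR-142 KO (5 higher, 3 lower). The shares were 34.6, 15.4, 57.7 and 30.8%, against 36.3, 38, 45.4 and 39.6% of all genes. Leaving out miR-142 KO replicate 3 lowered the first count to 5 (3 higher, 2 lower), 19.2% against 33.4% of all genes, and raised the last to 12 (9 higher, 3 lower), 46.2% against 47.5%. Dguok, the mitochondrial deoxyguanosine kinase, was called lower in all 4, with means of 34.1 ± 1.28 CPM in WT, 26.1 ± 1.05 in CP CML, 29.7 ± 1.45 in miR-142 KO and 23.2 ± 1.31 in BC CML (SD, n = 6). Tk2, the mitochondrial thymidine kinase, was lower in BC CML vs CP CML (-0.43 ± 0.10 SE, adjusted p = 0.001271, edgeR). The transcription and ribosome factor Mterf4 and the exonuclease Exog were higher there, by 0.25 ± 0.06 and 0.29 ± 0.09 (SE, adjusted p = 0.003465 and 0.01122, edgeR). Lonp1, the protease that degrades TFAM among other substrates, was higher in miR-142 KO than in WT (0.20 ± 0.06 SE, adjusted p = 0.009231) and in CP CML than in WT (0.34 ± 0.06 SE, adjusted p = 6.994e-05, edgeR). The topoisomerases Top3a and Top1mt rose in miR-142 KO (0.27 ± 0.06 and 0.34 ± 0.10 SE, adjusted p = 0.0009851 and 0.006901, edgeR), Top1mt by 0.24 without replicate 3 (adjusted p = 0.01321). Mrpl12, a ribosomal protein that binds POLRMT, was higher in CP CML than in WT (0.68 ± 0.11 SE, adjusted p = 6.353e-05) and in BC CML than in miR-142 KO (0.53 ± 0.11 SE, adjusted p = 0.0009949, edgeR), and Primpol, a primase and polymerase, was lower in both (-0.50 ± 0.08 and -0.44 ± 0.08 SE, adjusted p = 3.836e-05 and 0.0002619, edgeR). Fen1, a flap endonuclease, was higher in BC CML than in miR-142 KO (0.24 ± 0.07 SE, adjusted p = 0.01281, edgeR). The effect of miR-142 loss on Mterf4 differed with BCR-ABL, by 0.33 ± 0.09 (SE, adjusted p = 0.03711, edgeR), or 0.28 ± 0.09 without miR-142 KO replicate 3 (adjusted p = 0.06329), and the carrier gene Slc25a36 was the 1 gene of the list called between sexes (0.285 ± 0.06 SE higher in males, adjusted p = 0.03636, edgeR).

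Genes of mitochondrial RNA handling were called mostly higher where BCR-ABL mice were compared with mice of the same miR-142 genotype without BCR-ABL. Of 27 tested, 11 were called in miR-142 KO vs WT (7 higher, 4 lower), 7 in BC CML vs CP CML (5 higher, 2 lower), 13 in CP CML vs WT (12 higher, 1 lower) and 14 in BC CML vs miR-142 KO (13 higher, 1 lower). The shares were 40.7, 25.9, 48.1 and 51.9%, against 36.3, 38, 45.4 and 39.6% of all genes. In the last 2 comparisons 44.4 and 48.1% were called higher, against 22.5 and 20.3% of all genes. Leaving out miR-142 KO replicate 3 made the first count 7 (4 higher, 3 lower), 25.9% against 33.4% of all genes, and the last 18 (16 higher, 2 lower), 66.7% against 47.5%. The median log2 fold changes were 0.04, 0.03, 0.16 and 0.20, beside 0.01, 0.01, -0.02 and -0.02 over all genes. Slirp, which binds and stabilises mitochondrial messengers, was higher in miR-142 KO than in WT (0.35 ± 0.09 SE, adjusted p = 0.002398), in BC CML than in CP CML (0.47 ± 0.08 SE, adjusted p = 0.0001215) and in BC CML than in miR-142 KO (0.46 ± 0.08 SE, adjusted p = 0.0002555, edgeR). Its partner Lrpprc was higher in CP CML than in WT (0.39 ± 0.08 SE, adjusted p = 0.0005265, edgeR), as were Tbrg4 (0.49 ± 0.05 SE, adjusted p = 3.866e-07), the tRNA-processing enzyme Elac2 (0.49 ± 0.08 SE, adjusted p = 6.871e-05) and the helicase Supv3l1 (0.38 ± 0.07 SE, adjusted p = 0.0001926, edgeR). Mto1, a tRNA-modifying enzyme, and Rexo2, an oligoribonuclease, were higher in BC CML than in CP CML (0.37 ± 0.05 and 0.36 ± 0.08 SE, adjusted p = 8.607e-06 and 0.00101, edgeR), and Angel2 was lower (-0.14 ± 0.04 SE, adjusted p = 0.003325, edgeR). Elac2 and Rexo2 also rose and Angel2 fell in miR-142 KO vs WT, with changes of 0.30, 0.32 and -0.12 (adjusted p = 0.007641, 0.003162 and 0.01152, edgeR), and of 0.22, 0.26 and -0.11 without replicate 3 (adjusted p = 0.01672, 0.007752 and 0.01998). Mto1 and the RNA-binding Grsf1 rose in BC CML vs miR-142 KO (0.24 and 0.20, adjusted p = 0.001113 and 0.0009373, edgeR), where Angel2 fell (-0.17, adjusted p = 0.0006836, edgeR). The effect of miR-142 loss on Tbrg4 was lower in BCR-ABL mice, with a difference of -0.29 ± 0.08 (SE, adjusted p = 0.03158, edgeR), or -0.26 without miR-142 KO replicate 3 (adjusted p = 0.01729).

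Genes of mitochondrial protein import and proteostasis were called higher in most cases where BCR-ABL mice were compared with mice of the same miR-142 genotype without BCR-ABL. Of 35 tested genes, 23 were called higher and 1 lower in CP CML vs WT, and 24 higher and 0 lower in BC CML vs miR-142 KO, 68.6% in each against the backgrounds of 45.4 and 39.6%. In miR-142 KO vs WT 10 were higher and 0 lower, and in BC CML vs CP CML 11 were higher and 1 lower, shares of 28.6 and 34.3% against 36.3 and 38% of all genes. Without miR-142 KO replicate 3, 6 were higher and 0 lower in miR-142 KO vs WT (17.1% against 33.4%), and 26 higher and 0 lower in BC CML vs miR-142 KO (74.3% against 47.5%). The median log2 fold changes with all libraries were 0.30, 0.28, 0.15 and 0.145 in CP CML vs WT, BC CML vs miR-142 KO, miR-142 KO vs WT and BC CML vs CP CML. Tomm40, the pore of the outer membrane, and Timm17a, a subunit of the inner membrane TIM23 channel, rose in CP CML vs WT by 0.76 ± 0.11 and 0.71 ± 0.10 (SE, adjusted p = 1.786e-05 and 5.418e-06, edgeR), and the chaperone Hspa9 and prohibitin Phb2 by 0.565 ± 0.09 and 0.564 ± 0.09 (SE, adjusted p = 4.022e-05 and 3.362e-05, edgeR). In BC CML vs miR-142 KO the chaperonin Hspd1 rose by 0.62 ± 0.12, Timm17a by 0.59 ± 0.10, Timm13 by 0.54 ± 0.10 and Tomm22 by 0.49 ± 0.08 (SE, adjusted p = 0.0002788, 7.113e-05, 0.0002839 and 6.137e-05, edgeR). Between BC CML and CP CML the processing peptidase Pmpcb, the protease Htra2, and the import genes Timm22 and Tomm7 were higher by 0.23 to 0.27 (adjusted p = 0.002331, 0.005126, 0.006573 and 0.01021, edgeR). In miR-142 KO vs WT Htra2, Afg3l2, Tomm6 and Trap1 were higher by 0.40, 0.25, 0.30 and 0.22 (adjusted p = 0.0001187, 0.002115, 0.005204 and 0.006006, edgeR). The 10 regulators had median log2 fold changes of 0.07 in CP CML vs WT and 0.04 in BC CML vs miR-142 KO.

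**Figure D4:**
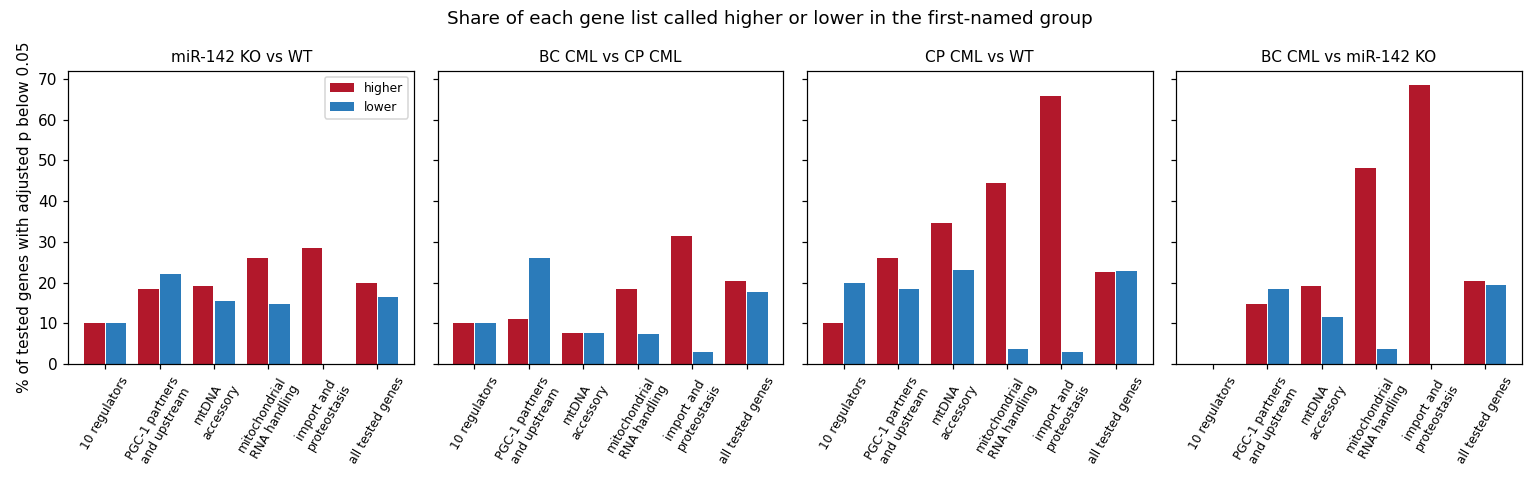
Percent of tested genes called higher (red) or lower (blue) in the first-named group of the 24-library fit, for the 10 regulators, the 4 related lists and all 13520 tested genes, in each group comparison. The bars of the 10 regulators stay at or below 20%, and those of import and proteostasis reach 68.6% higher in BC CML vs miR-142 KO.

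For each regulator, the tested gene with the most similar log2 levels over the 24 libraries was taken by Pearson r. It was Myo5c for Ppargc1a (r = 0.92), Arfgef3 for Ppargc1b (0.87), Usp36 for Pprc1 (0.90), Parp1 for Nrf1 (0.81) and Msh6 for Tfam (0.89). It was Nme3 for Tfb1m (0.83), Ddx3y, a gene of the Y chromosome, for Tfb2m (0.68), Ehmt2 for Polrmt (0.81), Osbpl5 for Polg (0.80) and Flt3l for Polg2 (0.76). After the group means were subtracted, r was between 0.64 (Flt3l with Polg2) and 0.85 (Usp36 with Pprc1). Each gene was the best of 13519 others, and the libraries share depth and scaling, so these values describe likeness only.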

How the data were processed

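LSKs were sorted from 24 mice, and the authors deposited gene read counts, made from mRNA libraries with Trimmomatic, STAR 2.6.0 and HTSeq 0.11.1 on mm10 per the submitters' processing notes; the annotation and strand setting of the counting are not given in the sources used here. The deposited gene length in kb was used for CPM per kb. The study's methods state 5 mice per group, and the files hold 6, all used. Groups came from the labels. Total counts were 16267965 to 24687077 per library.

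Counts were tested with edgeR 4.0.16 (R 4.3.3) by the quasi-likelihood test over all 24 libraries, after filterByExpr (13520 of 24091 genes) and TMM scaling, with Benjamini-Hochberg adjustment and a threshold of 0.05. Levels are TMM-scaled CPM, and SE is the fitted log2 fold change divided by the square root of F. The p-values weigh each group difference against the spread between these mice, which was estimated over the 4 groups together. Tested on simulated data for BC CML vs CP CML (13384 genes), the fit recovered 95 of 100 2-fold and 58 of 100 1.5-fold changes, with 9 false calls. Only 200 genes were changed, a smaller share than the 38% called in the data, so these rates need not hold there. Changes below 1.5-fold, such as those called for Ppargc1b, Tfb1m and Polg2, were not simulated.

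The named genes were the 10 regulators, up to 4 called genes per related list and comparison by smallest p, and for each regulator the gene with the highest Pearson r. Regulators and lists were chosen with earlier results of these data known. Alternatives were the likelihood ratio test, DESeq2 1.42.0, RLE and upper quartile scaling, other filters (none, or 1 CPM in 6 libraries), sex as a covariate, the 12 libraries compared alone, and leaving out each mouse. Overlaps and 3′ UTRs came from GENCODE M21, and promoters and miRNAs from RefSeq.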

Additional observations from a re-analysis of the deposited data

Results flagged for a closer look

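Among 40 sets of 6 libraries (10 regulators in 4 groups), 1 had an extreme library by Dixon's 95% critical value for 6 values. It was Ppargc1b in miR-142 KO, where replicate 3 was at 12.3 CPM and the next highest library at 9.24, a gap of 0.786 of the group's range. Chance flags about 1 in 20 such groups. The comparisons of Ppargc1b with and without this library are given in the report, and the reason for its level was not tested.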

How the results depend on the processing

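No paired analysis was possible because the labels give the mice no shared replicate numbers. Of 60 log2 fold changes of regulators, 7 were called, and 0 of the 7 reversed under an alternative. With upper quartile scaling 4 regulators were called in miR-142 KO vs WT (37.2% of all genes) and 3 in BC CML vs CP CML (37.7%), where Pprc1 and Nrf1 were gained and Tfb1m lost. With DESeq2 or with only the 12 libraries compared 5 were called in CP CML vs WT (adding Pprc1 and Tfam), against 47 and 46.2% of all genes. The share of regulators called, below that of all genes in the 24-library fit, was above it in these fits of miR-142 KO vs WT and CP CML vs WT. Leaving out single mice gave 1 to 2 calls in BC CML vs CP CML, 2 to 5 in miR-142 KO vs WT (5 without miR-142 KO replicate 3, against 33.4% of all genes), 3 to 5 in CP CML vs WT (5 without CP CML replicate 6, adding Pprc1 and Polrmt, against 45.1%) and 0 to 1 in BC CML vs miR-142 KO. Over all genes, sex was called for 233 genes by the likelihood ratio test, 372 by DESeq2 and 50 (without miR-142 KO replicate 4) to 250 (without BC CML replicate 3) with a mouse left out, beside 88, and the difference between miR-142 effects for 891 by DESeq2, beside 539. Upper quartile scaling moved the share of higher among called genes from 53.7 to 42.4% in BC CML vs CP CML and from 54.7 to 42% in miR-142 KO vs WT. It turned the sign of uncalled values near 0, namely Tfb2m (-0.013) and Polg2 (-0.025) in BC CML vs CP CML, Tfb2m in CP CML vs WT (-0.037, and -0.003 with no filter) and Nrf1 in BC CML vs miR-142 KO (-0.007). With a mouse left out, uncalled values crossed 0 for Polrmt in miR-142 KO vs WT (-0.044 to 0.034), BC CML vs CP CML (-0.089 to 0.025) and the difference of effects (-0.093 to 0.022), Tfb2m in CP CML vs WT (-0.034 to 0.075) and BC CML vs CP CML (-0.039 to 0.06), Polg2 in BC CML vs CP CML (-0.046 to 0.058), Ppargc1a in BC CML vs miR-142 KO (-0.364 to 0.014) and Pprc1 between sexes (-0.044 to 0.016). The causes were not tested. Depth limits Ppargc1a most, with 10 to 150 counts per library.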
